A study of Homo sapiens with 6 samples.

Results

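Kinesins and dynein are the motor proteins that walk along microtubules. They were followed here at the level of their messenger RNA after loss of ALYREF, a protein that binds processed transcripts and hands them to the nuclear export receptor. The genes were taken by their symbols: every row that begins with KIF, KIFC, KIFAP, KLC or DYNC, or with DCTN, and a digit, or with DYNL. This gave 55 of the 11679 genes, all present in both tables. KIF1BP carries the name of a kinesin but encodes a protein that binds kinesins and is no motor itself, and KIF26B is a kinesin by sequence without motor activity. By role, 13 were kinesins of the mitotic spindle and of cell division, 18 were transport kinesins with their light chains and KIFAP3, and 6 were kinesins of cilia and other KIF symbols. A further 10 were chains of cytoplasmic dynein-1, 2 were chains of dynein-2, and 6 were subunits of dynactin. KIF4B is a retrocopy of KIF4A, and reads from such close copies can be split between them, so both rows are uncertain.

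Kinesins mostly walk to the plus ends of microtubules, outward from the cell centre, and cytoplasmic dynein-1 carries cargo to the minus ends with dynactin as its activator. In mitosis, kinesins push the spindle poles apart, shorten microtubules, align the chromosomes and build the central spindle for cytokinesis, and the genes of many of them are transcribed in G2 and mitosis. Kinesin-2 and dynein-2 work in opposite directions within the cilium, an organelle whose loss is a known feature of clear cell renal carcinoma.

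The cells were 786-O, an established line from a human clear cell renal carcinoma that lacks functional VHL. There were 3 groups of 2 libraries: a non-targeting control siRNA, and ALYREF siRNA5 or siRNA8, named by the number in their labels. All were grown in RPMI with 10% serum under atmospheric oxygen, transfected with the same lipid reagent, and harvested at 48 h. Polyadenylated RNA was read as pairs of 42 bases. The 2 tables gave 1 mean normalized count per gene over the libraries of the fit and 1 log2 fold change per siRNA against the control, so neither values nor depths of single libraries are used here. Nothing in the labels says that duplicates came from separate cultures, so each p-value reflects no more than how far these libraries differ, which may be technical. Each change below is a log2 fold change against the control, followed after the sign ± by its standard error. The words rose and fell are kept for changes whose adjusted p lies under 0.05, and a gene that stood at a value did not pass. Of the markers of renal carcinoma, 7 of 8 were measured, among them the kidney transcription factor PAX8 with a mean of 2354 and EPAS1, which encodes HIF-2 alpha, with a mean of 2207 normalized counts per the authors' deposited tables. Of 5 markers of keratin-rich epithelium, EPCAM alone was measured, with a mean of 67.3 per the authors' deposited tables. None of the 5 immune and 4 endothelial markers was among the 11679 genes. ALYREF itself fell by 4.14 ± 0.096 under siRNA5 and by a log2 change of -3.67 ± 0.085 under siRNA8 per the authors' deposited tables. Its fall was deeper under siRNA5 by a difference of -0.47 ± 0.13 (adjusted p = 0.00152).

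The promoters of the mitotic kinesins are shown first, for the 5 genes that rose under siRNA5 and did not pass as higher under siRNA8. Genes of G2 and mitosis are known to carry a cell cycle genes homology region (CHR), with the letters TTTGAA or TTCGAA, next to a box bound by NF-Y, with the letters CCAAT. Sequences were taken from RefSeq promoters on GRCh38.p14, which held 45 of the 55 genes and all 13 mitotic kinesins, and run from 170 bases before to 30 bases after the transcript start. Capitals mark a CHR word or the NF-Y word on either strand.
KIF11 (chr10:92592960-92593159, plus strand): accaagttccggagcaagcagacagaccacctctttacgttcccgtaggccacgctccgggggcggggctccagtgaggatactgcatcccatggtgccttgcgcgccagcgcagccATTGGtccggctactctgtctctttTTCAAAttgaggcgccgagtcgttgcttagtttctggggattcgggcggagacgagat
KIF14 (chr1:200620722-200620921, minus strand): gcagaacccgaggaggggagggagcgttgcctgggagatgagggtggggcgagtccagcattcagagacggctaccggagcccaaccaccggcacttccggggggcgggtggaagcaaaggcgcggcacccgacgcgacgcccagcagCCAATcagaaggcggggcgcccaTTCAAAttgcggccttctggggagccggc
KIF20A (chr5:138178942-138179141, plus strand): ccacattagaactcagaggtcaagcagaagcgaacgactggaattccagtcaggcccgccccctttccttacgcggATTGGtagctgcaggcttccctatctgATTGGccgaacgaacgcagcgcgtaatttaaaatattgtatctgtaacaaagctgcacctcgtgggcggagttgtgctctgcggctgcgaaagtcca
KIF22 (chr16:29790581-29790780, plus strand): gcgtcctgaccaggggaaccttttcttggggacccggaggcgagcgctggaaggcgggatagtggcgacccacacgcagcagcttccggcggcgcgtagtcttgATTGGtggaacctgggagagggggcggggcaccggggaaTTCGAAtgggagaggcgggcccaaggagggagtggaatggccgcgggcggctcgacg
KIF23 (chr15:69414179-69414378, plus strand): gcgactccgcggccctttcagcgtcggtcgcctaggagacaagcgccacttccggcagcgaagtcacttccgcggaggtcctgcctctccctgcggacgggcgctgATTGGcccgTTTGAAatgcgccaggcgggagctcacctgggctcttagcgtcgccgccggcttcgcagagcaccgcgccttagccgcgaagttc

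In the full windows of 250 bases before to 50 after the start, TTTGAA or its complement TTCAAA was present in 9 of the 13 mitotic kinesin genes (69.2%). It was present in 18.2% of the 27305 genes with a promoter in the same table and in 15.2% of the 35116 single promoters. In this paragraph all genes means these 27305, which are not limited to the 11679 measured genes that the members come from. Shares among measured genes alone were not computed, so these contrasts may partly reflect that wider background. Among the other members it was found in 1 of 12 transport kinesins, KIF5B, and in 0 of 4 ciliary and other kinesins, 0 of 9 dynein-1 chains, 0 of 2 dynein-2 chains and 0 of 5 dynactin subunits. TTCGAA, which is its own complement, stood in 1 mitotic kinesin, KIF22, against 1.82% of all genes. CCAAT or ATTGG was present in 10 of the 13 mitotic kinesins (76.9%) and in 39.7% of all genes. This box was not confined to them: 4 of 5 dynactin subunits and 2 of 4 ciliary and other kinesins also held it. It was found in 3 of 12 transport kinesins, 3 of 9 dynein-1 chains and 0 of 2 dynein-2 chains. KIF20A held 2 such boxes and neither CHR word in its window, and KIF2A and KIF2C held none of these words. The GC box GGGCGG, searched on both strands, was in 12 of the 13 mitotic kinesins and in all 12 transport kinesins, all 9 dynein-1 chains and neither dynein-2 chain, against 48.3% of all genes. It was also in all 4 ciliary and other kinesins and in 3 of 5 dynactin subunits. Each gene was counted once for a word group, whatever the number of its matches or overlaps. KIF4A and its retrocopy KIF4B were counted separately. ATTGG and TTTGAA stand at -58 and -34 in KIF4A and in the same order, at -21 and 4, in KIF4B. The matches of this pair may therefore not be independent. These matches describe letters in a window and show no binding.

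**Figure D1:**
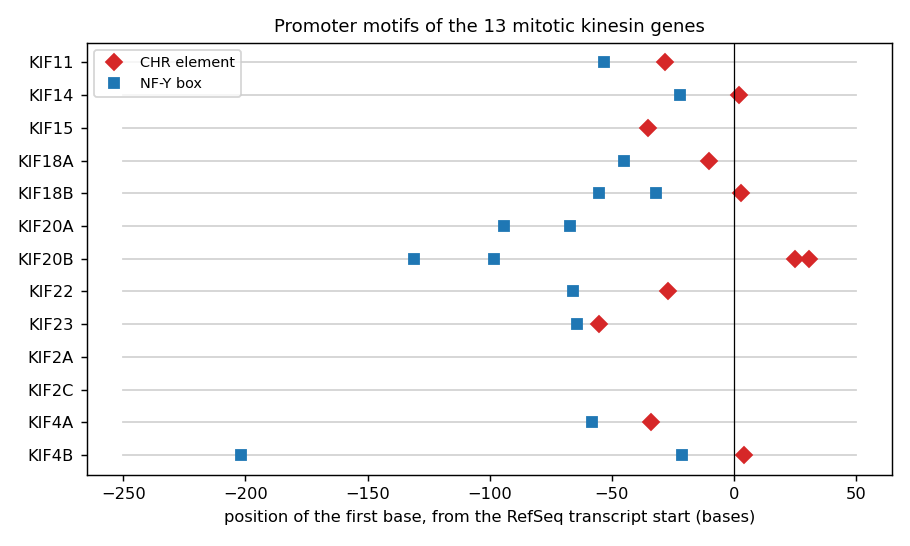
Positions of CHR elements (red diamonds) and NF-Y boxes (blue squares) on either strand in the RefSeq promoters of the 13 mitotic kinesin genes, by the distance of the first base of the word from the transcript start in bases; the first of the 2 KIF22 promoters is drawn. In 9 of the 13 genes, KIF4A and its retrocopy KIF4B among them, an NF-Y box lies before a CHR element, and KIF2A and KIF2C hold neither.

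Of the 55 genes, 16 rose and 16 fell under siRNA5, and 7 rose and 22 fell under siRNA8. With siRNA5 each direction is 29.1% of the members, beside 24.4% of all genes called higher and 22.0% called lower. With siRNA8 the members called higher are 12.7% beside 21.0% of all genes, and the members called lower are 40.0% beside 20.5%. The median log2 change of the members was 0.02 under siRNA5 and -0.08 under siRNA8, and that of all genes was 0.01 with each. Most changes were small: the median absolute change was 0.27 under siRNA5 and 0.23 under siRNA8, against 0.25 and 0.23 over all genes. No member rose by 2-fold or more. KIF1C, DYNC2H1 and KLC3 fell by at least 2-fold under siRNA5, and KIF3C, KIF12, KLC3 and DYNC1I1 under siRNA8. Counting only log2 changes of at least 0.32 left 8 members higher under siRNA5 and 2 under siRNA8, and 12 and 15 lower. Under siRNA5 these are 14.5% higher and 21.8% lower, beside 15.7% and 15.8% of all genes at that limit. No share of all genes at that limit is given here for siRNA8. Its counts there are therefore not read as a result about the members. How well a change can be seen follows the mean: the median SE under siRNA5 was 0.18 for the 16 members with a mean under 300 and 0.063 for the 25 with a mean of at least 1000. Calls also become more frequent with the mean: 37.0% of all genes with a mean of at least 1000 and 12.5% of those under 300 were higher under siRNA5. Of the 25 members with a mean of at least 1000, 10 were lower under siRNA8 (40.0%), beside 25.0% of all genes of that mean. Of the 16 with a mean under 300, 8 were lower under siRNA5 (50.0%) and 7 under siRNA8 (43.8%), beside 18.1% and 15.5% of all genes of that mean.

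**Figure D2:**
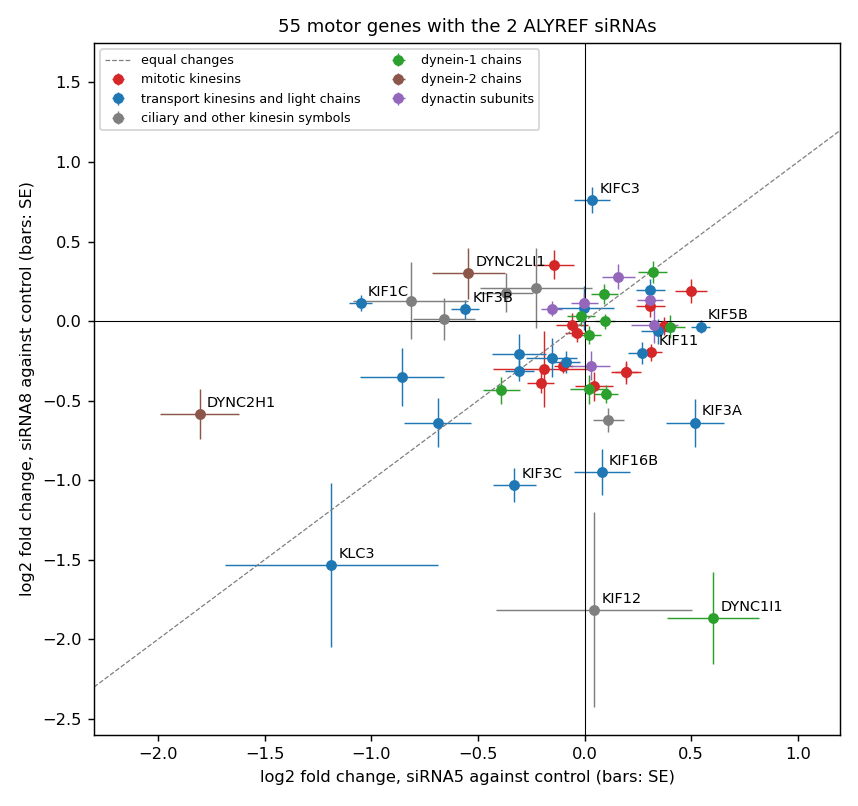
Log2 fold change of each of the 55 genes under siRNA5 (horizontal) and siRNA8 (vertical) against the same control libraries, coloured by role, with bars of 1 standard error; the dashed line marks equal changes. Mitotic kinesins (red) lie mostly below the line, DYNC1I1 and KIF3A at the lower right, and KIF1C, DYNC2H1 and KIFC3 above it.

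The 2 siRNAs were compared directly, by the difference of their log2 changes. Of the 55 genes, 19 were higher under siRNA5 than under siRNA8 (34.5%, beside 17.2% of all genes), and 10 were lower (18.2%, beside 14.8%). The median difference was 0.11 over the members and 0.0005 over all genes. Both changes are taken against the same control, whose spread enters both standard errors, so this test is conservative. With the variance of the control removed, taking the mean to cover these 6 libraries alone, 25 members were higher and 11 lower, beside 24.9% and 23.2% of all genes.

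Of the 13 mitotic kinesins, 6 rose and 1 fell under siRNA5, and 2 rose and 6 fell under siRNA8. The median log2 change was 0.05 under siRNA5 and -0.20 under siRNA8. The 6 rises under siRNA5 are 46.2% of the group, beside 24.4% of all genes and 37.0% of those with a mean of at least 1000. The 6 falls under siRNA8 are also 46.2%, beside 20.5% of all genes and 25.0% of those with such a mean. Directly compared, 7 of 13 were higher under siRNA5 (53.8%, beside 17.2% of all genes), 1 was lower and 5 were not called. In RNA from whole cultures, fewer cells in mitosis and less of a transcript per cell cannot be told apart. Applied to the 6 rises under siRNA5, the limit of 0.32 on the log2 scale left 2. These are 15.4% of the group, beside 15.7% of all genes at that limit. The same limit left 3 of the 6 falls under siRNA8. No share of all genes is given here beside that count, so it is not read as a result about the group.

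KIF11, the motor Eg5 that pushes the spindle poles apart, rose by 0.31 ± 0.052 (adjusted p = 1.4e-08) under siRNA5 and fell by 0.20 ± 0.052 (adjusted p = 0.000773) under siRNA8 per the authors' deposited tables. These are changes of 1.24-fold upward and 1.15-fold downward, and the direct difference was 0.51 ± 0.074 (adjusted p = 1.11e-10). KIF15, which can take over from KIF11 in keeping the spindle bipolar, stood at 0.05 ± 0.088 (adjusted p = 0.708) under siRNA5 and fell by 0.41 ± 0.090 (adjusted p = 2.88e-05) under siRNA8 per the authors' deposited tables. The siRNAs differed for both, by 0.46 ± 0.13 (adjusted p = 0.00156) in the case of KIF15.

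Motors of cytokinesis came next. KIF20A, which brings the chromosomal passenger complex to the central spindle, rose by 0.20 ± 0.053 (adjusted p = 0.000806) under siRNA5 and fell by 0.32 ± 0.054 (adjusted p = 4.03e-08) under siRNA8 per the authors' deposited tables. KIF14, a motor of the midbody, rose by 0.19 ± 0.071 (adjusted p = 0.0162) under siRNA5 and fell by 0.32 ± 0.073 (adjusted p = 6.19e-05) under siRNA8 per the authors' deposited tables. Their differences were close in size, 0.51 ± 0.076 (adjusted p = 2.39e-10) and 0.52 ± 0.10 (adjusted p = 4.37e-06). KIF23, the motor of centralspindlin, rose by 0.31 ± 0.069 (adjusted p = 3.9e-05) under siRNA5 and stood at 0.10 ± 0.069 (adjusted p = 0.271) under siRNA8 per the authors' deposited tables. For KIF23 the difference of 0.21 ± 0.10 (adjusted p = 0.0823) missed the threshold, with a 95% interval from 0.02 to 0.40. KIF20B, also a motor of late cytokinesis, went down with both: it fell by 0.21 ± 0.063 (adjusted p = 0.0034) under siRNA5 and fell by 0.39 ± 0.063 (adjusted p = 1.14e-08) under siRNA8 per the authors' deposited tables.

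Among the chromokinesins, which move chromosome arms, KIF22 rose by 0.37 ± 0.057 (adjusted p = 8.07e-10) under siRNA5 and stood at -0.03 ± 0.058 (adjusted p = 0.707) under siRNA8 per the authors' deposited tables, a difference of 0.40 ± 0.082 (adjusted p = 7.4e-06). KIF4A, which also sets the length of the central spindle, stood at -0.04 ± 0.055 (adjusted p = 0.622) under siRNA5 and stood at -0.08 ± 0.055 (adjusted p = 0.274) under siRNA8 per the authors' deposited tables. Its difference had a 95% interval from -0.11 to 0.19. The retrocopy KIF4B, with a mean of 80.8, had log2 changes of -0.19 ± 0.24 and -0.30 ± 0.24 per the authors' deposited tables, neither called.

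The kinesins that shorten or cap microtubules did not share a direction. KIF2A, a depolymerase of the spindle poles, rose by 0.50 ± 0.076 (adjusted p = 6.22e-10) under siRNA5, the largest rise among the mitotic kinesins, and rose by 0.19 ± 0.077 (adjusted p = 0.035) under siRNA8 per the authors' deposited tables. KIF2C, the depolymerase of the centromere also called MCAK, stood at -0.10 ± 0.046 (adjusted p = 0.0683) under siRNA5 and fell by 0.28 ± 0.047 (adjusted p = 1.71e-08) under siRNA8 per the authors' deposited tables. KIF18A, which dampens chromosome movements at the metaphase plate, stood at -0.14 ± 0.093 (adjusted p = 0.212) under siRNA5 and rose by 0.36 ± 0.090 (adjusted p = 0.000375) under siRNA8 per the authors' deposited tables. It was the 1 mitotic kinesin lower under siRNA5 than under siRNA8, with a difference of -0.50 ± 0.13 (adjusted p = 0.000755). KIF18B, a regulator of astral microtubules, stood at -0.06 ± 0.074 (adjusted p = 0.549) under siRNA5 and stood at -0.02 ± 0.073 (adjusted p = 0.836) under siRNA8 per the authors' deposited tables, and the 95% interval of its difference ran from -0.24 to 0.17.

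**Figure D3:**
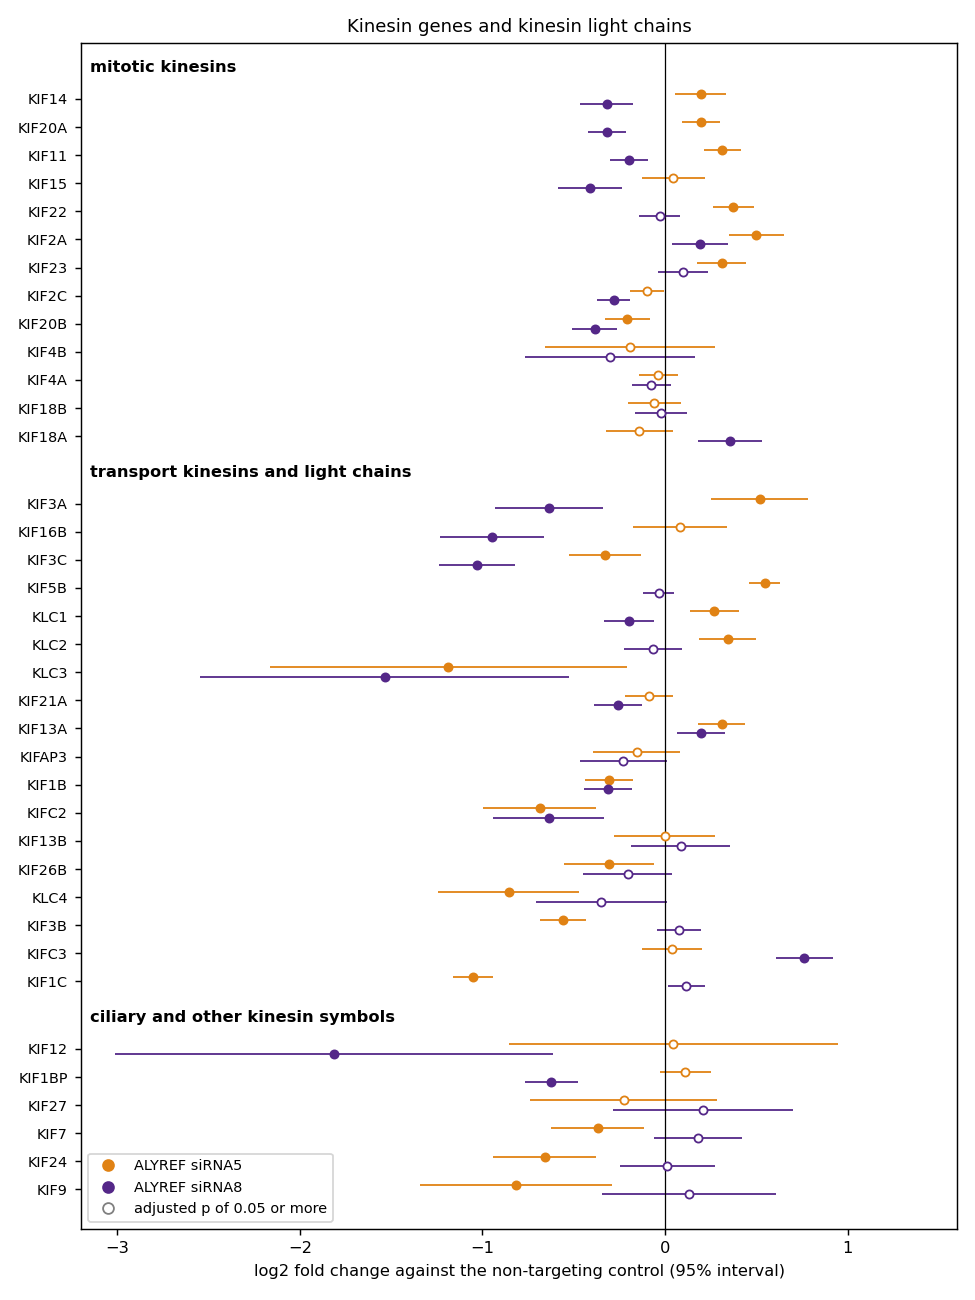
Log2 fold changes of the 37 kinesin and kinesin-related genes against the non-targeting control under siRNA5 (orange) and siRNA8 (purple), with 95% intervals, by role and ordered by the difference between the siRNAs; open points were not called. KIF14, KIF20A, KIF11, KIF3A and KLC1 have a filled orange point to the right and a filled purple point to the left of 0.

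The log2 changes of transport kinesins and their light chains ran from -1.19 to 0.54 under siRNA5, and those of mitotic kinesins from -0.21 to 0.50. Of the 18 transport genes, 5 rose and 8 fell under siRNA5, and 2 rose and 8 fell under siRNA8. The rises are 27.8% and 11.1%, beside 24.4% and 21.0% of all genes, and the falls 44.4% with each siRNA, beside 22.0% and 20.5%. The median log2 change was -0.12 under siRNA5 and -0.22 under siRNA8. Directly compared, 6 were higher under siRNA5 (33.3%, beside 17.2%), 3 were lower (16.7%, beside 14.8%) and 9 were not called. KIF1C, a kinesin-3 that carries vesicles and messenger RNA, fell by 1.05 ± 0.056 (adjusted p = 1.76e-76) under siRNA5, which is 2.07-fold, and stood at 0.12 ± 0.051 (adjusted p = 0.0581) under siRNA8 per the authors' deposited tables. Its difference of -1.16 ± 0.076 (adjusted p = 8.16e-51) was the one with the smallest adjusted p among the members. The kinesin-3 motor KIF1B, a carrier of mitochondria and vesicle precursors, went down with both: it fell by 0.31 ± 0.067 (adjusted p = 2.75e-05) under siRNA5 and fell by 0.31 ± 0.067 (adjusted p = 1.83e-05) under siRNA8 per the authors' deposited tables, with a 95% interval of the difference from -0.18 to 0.19.

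Conventional kinesin, or kinesin-1, is made of KIF5 heavy chains and KLC light chains, of which KIF5B, KLC1 and KLC2 were higher under siRNA5 than under siRNA8. The heavy chain KIF5B rose by 0.54 ± 0.043 (adjusted p = 4.79e-35) under siRNA5 and stood at -0.03 ± 0.043 (adjusted p = 0.56) under siRNA8 per the authors' deposited tables. That is 1.46-fold upward under siRNA5, and the siRNAs differed by 0.58 ± 0.061 (adjusted p = 1.7e-19). The light chain KLC1 rose by 0.27 ± 0.067 (adjusted p = 0.000269) under siRNA5 and fell by 0.20 ± 0.069 (adjusted p = 0.013) under siRNA8 per the authors' deposited tables. KLC2 rose by 0.34 ± 0.079 (adjusted p = 6.83e-05) under siRNA5 and stood at -0.06 ± 0.081 (adjusted p = 0.55) under siRNA8 per the authors' deposited tables. The differences for these light chains were 0.47 ± 0.10 (adjusted p = 1.28e-05) and 0.41 ± 0.11 (adjusted p = 0.00168). KLC3 and KLC4 went the other way under siRNA5. KLC4, with a mean of 125, fell by 0.86 ± 0.20 (adjusted p = 5.97e-05) under siRNA5 and stood at -0.35 ± 0.18 (adjusted p = 0.112) under siRNA8 per the authors' deposited tables. KLC3, at a mean of only 20.6, fell by 1.19 ± 0.50 (adjusted p = 0.0389) under siRNA5 and fell by 1.53 ± 0.52 (adjusted p = 0.00922) under siRNA8 per the authors' deposited tables, and at a threshold of 0.01 its change under siRNA5 is no longer called. In GENCODE v29, 28 of the 55 genes share exon bases with another gene. KLC1 shares 5756 of its 19251 exon bases with XRCC3 on the other strand and 1989 with AL139300.1 on the same strand. KLC3 shares 535 bases with ERCC2 on the other strand. The labels do not say whether counting used the strand, which would in any case not separate genes on the same strand.

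Kinesin-2, the plus-end motor of intraflagellar transport, is a trimer of KIF3A with KIF3B or KIF3C and of KIFAP3. Its subunits differed in direction. KIF3A rose by 0.52 ± 0.14 (adjusted p = 0.000558) under siRNA5 and fell by 0.64 ± 0.15 (adjusted p = 0.000127) under siRNA8 per the authors' deposited tables, a difference of 1.15 ± 0.20 (adjusted p = 1.82e-07). Its partner KIF3B did the opposite under siRNA5: it fell by 0.56 ± 0.065 (adjusted p = 1.29e-16) under siRNA5 and stood at 0.07 ± 0.061 (adjusted p = 0.342) under siRNA8 per the authors' deposited tables. The difference for KIF3B was -0.63 ± 0.089 (adjusted p = 2.84e-11), of the other sign. KIF3C fell by 0.33 ± 0.10 (adjusted p = 0.00353) under siRNA5 and fell by 1.03 ± 0.11 (adjusted p = 1.77e-20) under siRNA8, where it was 2.04-fold lower, per the authors' deposited tables. KIFAP3, the subunit that joins the motors to cargo, stood at -0.15 ± 0.12 (adjusted p = 0.308) under siRNA5 and stood at -0.23 ± 0.12 (adjusted p = 0.118) under siRNA8 per the authors' deposited tables. KIF3A and KIF3B, which form 1 motor, were each called under siRNA5 and in opposite directions.

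The remaining transport motors include those of endosomes. KIF16B, which moves early endosomes, stood at 0.08 ± 0.13 (adjusted p = 0.653) under siRNA5 and fell by 0.95 ± 0.14 (adjusted p = 6.5e-10) under siRNA8 per the authors' deposited tables, that is 1.93-fold lower. KIF13A, which moves recycling endosomes, rose by 0.31 ± 0.067 (adjusted p = 1.86e-05) under siRNA5 and rose by 0.20 ± 0.067 (adjusted p = 0.00947) under siRNA8 per the authors' deposited tables. Its close relative KIF13B had log2 changes of -0.0014 ± 0.14 and 0.08 ± 0.14 per the authors' deposited tables, neither called. KIFC3, a minus-end kinesin of epithelial junctions, stood at 0.04 ± 0.084 (adjusted p = 0.751) under siRNA5 and rose by 0.76 ± 0.080 (adjusted p = 4.28e-20) under siRNA8, 1.70-fold higher and the largest rise among the 55 genes with either siRNA per the authors' deposited tables. KIFC2, another minus-end kinesin, fell with both: it fell by 0.69 ± 0.16 (adjusted p = 5.71e-05) under siRNA5 and fell by 0.64 ± 0.15 (adjusted p = 0.00019) under siRNA8 per the authors' deposited tables. It shares 791 of its 4447 exon bases with FOXH1 on the other strand in GENCODE v29. KIF21A, which restrains microtubule growth at the cell cortex, stood at -0.09 ± 0.068 (adjusted p = 0.293) under siRNA5 and fell by 0.26 ± 0.068 (adjusted p = 0.000652) under siRNA8 per the authors' deposited tables. KIF26B, which acts in kidney development, fell by 0.31 ± 0.13 (adjusted p = 0.0348) under siRNA5 and stood at -0.21 ± 0.12 (adjusted p = 0.178) under siRNA8 per the authors' deposited tables.

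Of the 6 kinesins of cilia and other KIF symbols, 0 rose with either siRNA, 3 fell under siRNA5 and 2 fell under siRNA8. The falls are 50.0% and 33.3% of only 6 genes, beside 22.0% and 20.5% of all genes, of which 24.4% and 21.0% were higher. KIF7, which organises the tip of the cilium for Hedgehog signalling, fell by 0.37 ± 0.13 (adjusted p = 0.011) under siRNA5 and stood at 0.18 ± 0.12 (adjusted p = 0.244) under siRNA8 per the authors' deposited tables. KIF24, a depolymerase of the mother centriole that holds back cilium growth, fell by 0.66 ± 0.14 (adjusted p = 2.46e-05) under siRNA5 and stood at 0.01 ± 0.13 (adjusted p = 0.952) under siRNA8 per the authors' deposited tables. KIF9, a kinesin of motile cilia with a mean of 65.8, fell by 0.82 ± 0.27 (adjusted p = 0.00702) under siRNA5 and stood at 0.13 ± 0.24 (adjusted p = 0.707) under siRNA8 per the authors' deposited tables. These 3 were lower under siRNA5 than under siRNA8, with differences of -0.55 ± 0.18 (adjusted p = 0.00876) for KIF7, -0.67 ± 0.20 (adjusted p = 0.00318) for KIF24 and -0.94 ± 0.36 (adjusted p = 0.0315) for KIF9. KIF12, a kinesin of kidney epithelium with a mean of only 26.6, stood at 0.04 ± 0.46 (adjusted p = 0.948) under siRNA5 and fell by 1.81 ± 0.61 (adjusted p = 0.00951) under siRNA8 per the authors' deposited tables, and KIF27, a ciliary relative of KIF7, stood at -0.23 ± 0.26 and 0.21 ± 0.25. The binding protein KIF1BP stood at 0.11 ± 0.072 (adjusted p = 0.205) under siRNA5 and fell by 0.62 ± 0.075 (adjusted p = 1.63e-15) under siRNA8 per the authors' deposited tables. Of the 6, 2 were higher under siRNA5 than under siRNA8 (33.3%, beside 17.2% of all genes), and 3 were lower (50.0%, beside 14.8%). The higher ones were KIF1BP, by 0.73 ± 0.10 (adjusted p = 3.41e-11), and KIF12, by 1.86 ± 0.77 (adjusted p = 0.0478).

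Of the 10 dynein-1 chains, 3 rose and 1 fell under siRNA5, and 2 rose and 4 fell under siRNA8. The rises lie near the shares of all genes, 24.4% and 21.0%, and the falls stand beside 22.0% and 20.5% of all genes. The median log2 change was 0.10 under siRNA5 and -0.06 under siRNA8. Directly compared, 4 of 10 were higher under siRNA5 (40.0%, beside 17.2% of all genes) and 0 were lower, beside 14.8%. DYNC1H1, the heavy chain that carries the motor domain, stood at 0.10 ± 0.056 (adjusted p = 0.138) under siRNA5 and fell by 0.46 ± 0.057 (adjusted p = 1.87e-14) under siRNA8, 1.37-fold lower, per the authors' deposited tables. The difference between the siRNAs was 0.56 ± 0.080 (adjusted p = 7.49e-11). DYNC1I1, an intermediate chain known mainly from neurons, had the largest difference of all 55 genes. It rose by 0.60 ± 0.22 (adjusted p = 0.0134) under siRNA5 and fell by 1.87 ± 0.29 (adjusted p = 1.12e-09) under siRNA8 per the authors' deposited tables, a difference of 2.47 ± 0.36 (adjusted p = 1.41e-10) at a mean of 97.0. DYNC1I2, the intermediate chain found in most tissues, stood at 0.09 ± 0.063 (adjusted p = 0.229) under siRNA5 and rose by 0.17 ± 0.063 (adjusted p = 0.0197) under siRNA8 per the authors' deposited tables.

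The light intermediate chains link dynein to its cargo adaptors. DYNC1LI1 rose by 0.40 ± 0.069 (adjusted p = 6.15e-08) under siRNA5 and stood at -0.04 ± 0.071 (adjusted p = 0.723) under siRNA8 per the authors' deposited tables, whereas DYNC1LI2 stood at 0.10 ± 0.046 (adjusted p = 0.0708) under siRNA5 and stood at -0.0016 ± 0.046 (adjusted p = 0.982) under siRNA8 per the authors' deposited tables. The difference for DYNC1LI1 was 0.44 ± 0.10 (adjusted p = 8.69e-05), and the 95% interval of that for DYNC1LI2 ran from -0.03 to 0.23. Of the small light chains, DYNLRB1 rose and DYNLT3 fell with each siRNA. DYNLRB1 rose by 0.32 ± 0.068 (adjusted p = 1.62e-05) under siRNA5 and rose by 0.31 ± 0.068 (adjusted p = 3.15e-05) under siRNA8 per the authors' deposited tables, with a 95% interval of the difference from -0.18 to 0.20. DYNLT3 fell by 0.39 ± 0.087 (adjusted p = 3.18e-05) under siRNA5 and fell by 0.44 ± 0.086 (adjusted p = 3.1e-06) under siRNA8 per the authors' deposited tables, with a 95% interval from -0.19 to 0.28. DYNLL2 stood at 0.02 ± 0.089 (adjusted p = 0.865) under siRNA5 and fell by 0.43 ± 0.091 (adjusted p = 1.56e-05) under siRNA8 per the authors' deposited tables, and its near twin DYNLL1 stood at 0.02 ± 0.054 and -0.09 ± 0.054. DYNLT1 stood at -0.01 ± 0.065 and 0.03 ± 0.065 per the authors' deposited tables.

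Dynein-2, the minus-end motor of the cilium, has a heavy chain and a light intermediate chain whose symbols begin with DYNC, and further chains described with the regulators of dynein. DYNC2H1, the heavy chain, with a mean of 198, fell by 1.80 ± 0.18 (adjusted p = 5.48e-21) under siRNA5 and fell by 0.59 ± 0.16 (adjusted p = 0.00075) under siRNA8 per the authors' deposited tables. The first is a fall of 3.49-fold, the deepest among the members under siRNA5. DYNC2LI1 fell by 0.54 ± 0.17 (adjusted p = 0.00471) under siRNA5 and stood at 0.30 ± 0.16 (adjusted p = 0.118) under siRNA8 per the authors' deposited tables. Both were lower under siRNA5 than under siRNA8, with differences of -1.22 ± 0.24 (adjusted p = 4.65e-06) and -0.84 ± 0.23 (adjusted p = 0.00168).

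Dynactin is built of many subunits around a short filament. Of the 6 subunits with a DCTN symbol, 2 rose and 1 fell under siRNA5, 1 rose and 1 fell under siRNA8, and no log2 change among these 6 was larger than 0.33. Over all genes, 24.4% and 22.0% were called in these directions under siRNA5, and 21.0% and 20.5% under siRNA8. DCTN1, the p150 subunit that grips microtubules, fell by 0.15 ± 0.050 (adjusted p = 0.00566) under siRNA5 and stood at 0.08 ± 0.049 (adjusted p = 0.195) under siRNA8 per the authors' deposited tables, the 1 DCTN gene that passed the test of the difference between the siRNAs, at -0.23 ± 0.070 (adjusted p = 0.00412). DCTN4 and DCTN6, which cap the pointed end of its filament, rose by 0.31 ± 0.059 and 0.33 ± 0.11 under siRNA5 per the authors' deposited table. DCTN5, of the same end, stood at 0.16 ± 0.077 (adjusted p = 0.0779) under siRNA5 and rose by 0.28 ± 0.075 (adjusted p = 0.000872) under siRNA8 per the authors' deposited tables. DCTN3, of the shoulder, stood at 0.03 ± 0.091 (adjusted p = 0.825) under siRNA5 and fell by 0.28 ± 0.092 (adjusted p = 0.00762) under siRNA8 per the authors' deposited tables, and DCTN2, dynamitin, was not called with either siRNA.

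**Figure D4:**
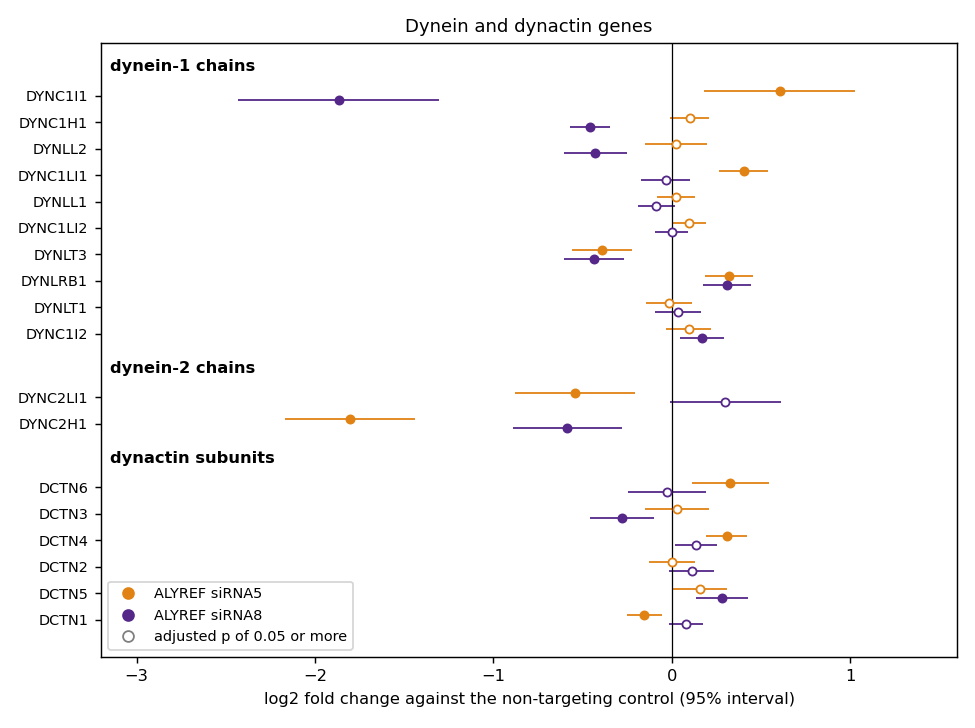
Log2 fold changes of the 18 dynein and dynactin genes against the non-targeting control under siRNA5 (orange) and siRNA8 (purple), with 95% intervals, by role and ordered by the difference between the siRNAs; open points were not called. DYNC1I1 lies at -1.87 under siRNA8 and DYNC2H1 at -1.80 under siRNA5, and the 6 DCTN genes stay within 0.33 of 0.

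Genes whose proteins work with the motors were examined as 4 lists. Of 24 partners of spindle motors, 16 rose and 4 fell under siRNA5, and 4 rose and 12 fell under siRNA8, with medians of 0.19 and -0.11. The shares were 66.7% and 16.7% under siRNA5 and 16.7% and 50.0% under siRNA8, beside the 24.4%, 22.0%, 21.0% and 20.5% of all genes. Directly compared, 17 of the 24 were higher under siRNA5 (70.8%) and 0 were lower, beside 17.2% and 14.8% of all genes. The median of their means was 3335, and of all genes with a mean of at least 1000, 28.2% were higher and 21.4% lower. CENPE, a kinesin of the kinetochore whose symbol lies outside the KIF series, rose by 0.17 ± 0.073 (adjusted p = 0.046) under siRNA5 and fell by 0.46 ± 0.075 (adjusted p = 9.29e-09) under siRNA8 per the authors' deposited tables, a difference of 0.63 ± 0.11 (adjusted p = 2.99e-08). MAPRE1, the plus-end protein EB1, rose by 0.65 ± 0.042 (adjusted p = 1.25e-51) under siRNA5 and rose by 0.22 ± 0.042 (adjusted p = 2.98e-06) under siRNA8 per the authors' deposited tables. ECT2, which works with KIF23 in cytokinesis, rose by 0.42 ± 0.053 (adjusted p = 6.39e-14) under siRNA5 and stood at 0.03 ± 0.054 (adjusted p = 0.668) under siRNA8 per the authors' deposited tables. INCENP, the scaffold of the passenger complex that KIF20A carries, rose with both, by 0.37 ± 0.064 and 0.35 ± 0.064 per the authors' deposited tables. MAP4, a microtubule stabiliser, fell by 0.17 ± 0.050 (adjusted p = 0.00258) under siRNA5 and fell by 0.72 ± 0.050 (adjusted p = 3.5e-44) under siRNA8 per the authors' deposited tables. CLASP2, which steadies plus ends, fell by 0.51 ± 0.081 under siRNA5 and fell by 0.59 ± 0.081 under siRNA8, and the spindle kinase AURKA fell by 0.25 ± 0.047 under siRNA5 and fell by 0.44 ± 0.047 under siRNA8 per the authors' deposited tables. MAPRE3, the relative of MAPRE1, rose by 0.35 ± 0.14 under siRNA5 and rose by 0.42 ± 0.14 under siRNA8 per the authors' deposited tables.

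Of 26 measured adaptors and regulators of kinesins, 7 rose and 5 fell under siRNA5, and 1 rose and 9 fell under siRNA8, with medians of 0.02 and -0.12. Under siRNA5 these are 26.9% and 19.2%, near the 24.4% and 22.0% of all genes, and under siRNA8 3.85% and 34.6%, beside 21.0% and 20.5%. TRAK1 and TRAK2 both link kinesin-1 to mitochondria. TRAK1 stood at 0.05 ± 0.11 under siRNA5 and rose by 0.42 ± 0.11 under siRNA8, and TRAK2 rose by 0.20 ± 0.075 under siRNA5 and fell by 0.63 ± 0.078 under siRNA8 per the authors' deposited tables. MAPK8IP3, a scaffold that binds kinesin light chains, fell by 0.60 ± 0.10 (adjusted p = 1.6e-08) under siRNA5 and stood at 0.02 ± 0.094 (adjusted p = 0.895) under siRNA8 per the authors' deposited tables. MAP7, which recruits kinesin-1 to microtubules, fell by 0.50 ± 0.21 under siRNA5 per the authors' deposited table. The lysosome and autophagosome adaptor FYCO1 and BLOC1S2, a subunit of a complex that positions lysosomes, rose under siRNA5 by 0.42 ± 0.14 and 0.38 ± 0.086 per the authors' deposited table.

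Of 28 measured regulators and adaptors of dynein, 8 rose and 11 fell under siRNA5, and 6 rose and 9 fell under siRNA8, with medians of 0.03 and -0.08. The rises, 28.6% and 21.4%, lie near the 24.4% and 21.0% of all genes, and the falls are 39.3% and 32.1%, beside 22.0% and 20.5%. PAFAH1B1, the dynein regulator LIS1, stood at 0.10 ± 0.050 (adjusted p = 0.109) under siRNA5 and fell by 0.38 ± 0.052 (adjusted p = 2.25e-12) under siRNA8 per the authors' deposited tables. As with DYNC1H1, the siRNAs differed, here by 0.48 ± 0.072 (adjusted p = 6.69e-10). The cargo adaptors HOOK1 and HOOK3 rose under siRNA5, by 0.61 ± 0.13 and 0.52 ± 0.10, and HOOK2 fell by 0.48 ± 0.19 per the authors' deposited table. BICD1, another cargo adaptor, fell by 0.53 ± 0.12 (adjusted p = 2.46e-05) under siRNA5 and fell by 0.72 ± 0.12 (adjusted p = 7.07e-09) under siRNA8 per the authors' deposited tables. CCDC88A, called girdin, stood at -0.12 ± 0.073 (adjusted p = 0.185) under siRNA5 and fell by 0.80 ± 0.075 (adjusted p = 3.84e-25) under siRNA8 per the authors' deposited tables.

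The same list holds the dynactin subunits without a DCTN symbol, of which ACTR1A, ACTR10, CAPZA1 and CAPZB are named here after their values were seen. ACTR1A, the main subunit of the filament, fell by 0.24 ± 0.051 (adjusted p = 2.14e-05) under siRNA5 and fell by 0.17 ± 0.051 (adjusted p = 0.00357) under siRNA8 per the authors' deposited tables. Its relative ACTR1B stood at 0.14 ± 0.10 (adjusted p = 0.253) under siRNA5 and rose by 0.73 ± 0.095 (adjusted p = 3.65e-13) under siRNA8 per the authors' deposited tables, a difference of -0.59 ± 0.14 (adjusted p = 0.000137). ACTR10, at the pointed end, stood at 0.17 ± 0.093 and -0.07 ± 0.094 per the authors' deposited tables. The capping proteins close the other end of the filament and also cap actin. CAPZA1 rose by 0.38 ± 0.040 under siRNA5 and rose by 0.18 ± 0.041 under siRNA8, and CAPZA2 rose by 0.24 ± 0.053 and rose by 0.29 ± 0.052 per the authors' deposited tables. CAPZB fell by 0.25 ± 0.042 (adjusted p = 1.16e-08) under siRNA5 and rose by 0.22 ± 0.041 (adjusted p = 8.91e-07) under siRNA8 per the authors' deposited tables, a difference of -0.47 ± 0.059 (adjusted p = 3e-14). The list also holds further chains of dynein-2, likewise named after their values were seen. The intermediate chain WDR34 fell by 0.38 ± 0.079 (adjusted p = 9.55e-06) under siRNA5 and fell by 0.25 ± 0.077 (adjusted p = 0.00502) under siRNA8 per the authors' deposited tables. The other intermediate chain, WDR60, fell by 0.44 ± 0.13 (adjusted p = 0.00351) under siRNA5 and stood at 0.29 ± 0.12 (adjusted p = 0.0505) under siRNA8 per the authors' deposited tables, a difference of -0.72 ± 0.18 (adjusted p = 0.000482). TCTEX1D2, a light chain with a mean of 46.1, stood at -0.43 ± 0.31 and -0.03 ± 0.29 per the authors' deposited tables.

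Tubulins, the track itself, were measured through 14 genes, of which 1 rose and 3 fell under siRNA5 and 0 rose and 4 fell under siRNA8. The falls, 21.4% and 28.6%, lie near the 22.0% and 20.5% of all genes, and the rises are 7.14% and 0%, beside 24.4% and 21.0%. The medians were -0.08 and -0.07. TUBB3, class III beta-tubulin, fell by 0.82 ± 0.058 (adjusted p = 1.39e-42) under siRNA5 and fell by 1.27 ± 0.060 (adjusted p = 2.42e-97) under siRNA8 per the authors' deposited tables. TUBA4A, an alpha-tubulin, fell by 1.00 ± 0.056 (adjusted p = 7.42e-69) under siRNA5 and stood at -0.01 ± 0.053 (adjusted p = 0.946) under siRNA8 per the authors' deposited tables. TUBB2A, a beta-tubulin, stood at 0.10 ± 0.10 (adjusted p = 0.42) under siRNA5 and fell by 0.95 ± 0.10 (adjusted p = 5.99e-18) under siRNA8 per the authors' deposited tables. TUBG1, the gamma-tubulin that seeds microtubules, rose by 0.24 ± 0.068 (adjusted p = 0.00126) under siRNA5 per the authors' deposited table.

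**Figure D5:**
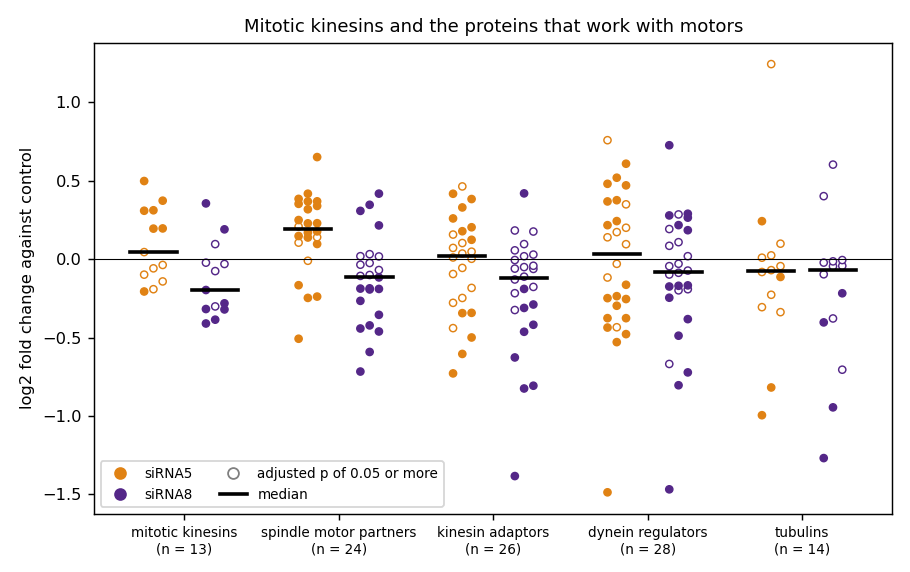
Log2 fold changes against the control of the 13 mitotic kinesins and of 4 lists of genes whose proteins work with motors, 1 point per gene, under siRNA5 (orange) and siRNA8 (purple); black lines are medians and open points were not called. The medians of spindle motor partners are 0.19 and -0.11, and those of mitotic kinesins 0.05 and -0.20.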

How the data were processed

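Per the labels' protocols, RNA of siRNA-treated 786-O cells went through poly-dT selection into directional, paired-end libraries. The tools STAR, Picard, HTSeq and DESeq2 and the build hg19 are listed, with no versions, per the submitters' processing notes. The deposited tables, 1 per siRNA, each hold 11681 rows: 11679 genes and 2 HTSeq rows that name no gene, one for reads outside features (6.23% of the summed means) and one for ambiguous reads (1.62%). For each row the authors gave, per the file headers, a mean normalized count (a signal over the libraries of their fit), a log2 fold change with its standard error, a Wald score, and p-values with adjusted p-values. The score was checked to be the log2 change over its standard error, and the adjusted p-values to be Benjamini-Hochberg values over all rows. The direction was read from ALYREF, and each table was matched to its siRNA by the number it shares with the library titles.

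The design written for this work allowed for counts per library. As the tables hold authors' results, the authors' DESeq2 Wald test stands as the main test at an adjusted p under 0.05. The members and lists were chosen with earlier results of these data known. To compare the siRNAs, their log2 changes were subtracted and divided by a standard error that adds both variances. The p was two-sided, from the normal distribution, and was adjusted by Benjamini-Hochberg across the 11679 genes (Python 3.11.15, scipy 1.17.1), a step tested on simulated data. The sources used here do not state which libraries enter the mean. A model of the standard errors in 2427 genes accounted for 96.9% of their variation when the mean covered these 6 libraries and for 98.3% when 6 further libraries at the control level were added, so no level per group was computed. Promoters were matched by symbol. Genes were named by rule: every member, and per list up to 2 called rises and 2 called falls per siRNA with a mean of at least 100, with CENPE, PAFAH1B1 and ALYREF. The result of 1 gene that this rule names is not reported here. Alternatives were a threshold of 0.01, minimum means of 50 and 500, a minimum change, centring, adjustment over genes alone, and removal of the control variance.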

Additional observations from a re-analysis of the deposited data

Results flagged for a closer look

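These genes were called in opposite directions with the 2 siRNAs, and their difference, siRNA5 minus siRNA8 on the log2 scale, passed its own test. At a threshold of 0.01, DYNC1I1 and KIF14 lose their call under siRNA5 and KLC1 its call under siRNA8, and with a minimum log2 change of 0.32 only KIF3A and DYNC1I1 keep both calls. Both siRNAs target ALYREF and were compared with the same control libraries. The largest was that of the dynein intermediate chain DYNC1I1, at 2.47 ± 0.36 (adjusted p = 1.41e-10), for a gene with a mean of only 97.0. The kinesin-2 subunit KIF3A differed by 1.15 ± 0.20 (adjusted p = 1.82e-07). The mitotic kinesins KIF11, KIF14 and KIF20A differed by 0.51 ± 0.074 (adjusted p = 1.11e-10), 0.52 ± 0.10 (adjusted p = 4.37e-06) and 0.51 ± 0.076 (adjusted p = 2.39e-10). The kinesin light chain KLC1 differed by 0.47 ± 0.10 (adjusted p = 1.28e-05). ALYREF itself was lower under siRNA5 than under siRNA8, by a log2 difference of -0.47, and its part in these differences was not tested.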

How the results depend on the processing

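A minimum log2 change of 0.32 left 8 members higher under siRNA5 (14.5%, beside 15.7% of all genes) and 2 higher under siRNA8. Only genes with a mean of at least 500, which leaves 37 members, gave 7 lower under siRNA5 (18.9%, beside 25.5% of all such genes) and 5 lower under siRNA5 than under siRNA8. No share of all genes is given here beside those 5, or beside the 2 higher under siRNA8. Neither count is therefore read as a result about the members. Without the 28 members that share exon bases with another gene in GENCODE v29, an alternative chosen after seeing the data, 27 were left. Of these, 8 were higher (29.6%, beside 24.4% of all genes) and 7 lower (25.9%, beside 22.0%) under siRNA5. With siRNA8, 3 were higher and 14 lower, beside 21.0% and 20.5% of all genes. Between the siRNAs, 11 were higher and 3 lower under siRNA5, beside 17.2% and 14.8% of all genes. As 27 genes were counted here and not 55, these numbers do not compare directly with those of all members. The other alternatives for these 6 counts, namely the threshold of 0.01, a mean of at least 50, centring, adjustment over genes alone, removal of the control variance and leaving out KIF1BP, stayed within 1.5 times. Over the 165 tests of single members (55 genes in 3 comparisons), the threshold of 0.01 lost 12 calls, and centring added 1, KIF2C lower under siRNA5. No direction reversed under these alternatives. No paired analysis was possible because the tables hold no values per library, and for the same reason leaving out a replicate, edgeR and other normalizations were not run.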
